A study of Mus musculus with 4 samples.

Results

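Mature neurons were taken from single-cell transcriptomes of whole mouse brain by a rule on detected genes, and they numbered 223 of 10067 cells that passed quality filters (2.22%) and of 12487 deposited barcodes. A cell passed with at least 400 detected genes and at most 20% mitochondrial UMIs (unique molecular identifiers, tags that mark single RNA molecules). It was a neuron when at least 3 of 8 neuronal genes had a UMI (Snap25, Syt1, Snhg11, Rbfox3, Ndrg4, Chgb, Gad1 and Slc17a7), at most 1 of 4 neuroblast genes did (Dlx1, Dlx2, Igfbpl1 and Dcx) and at most 1 of 6 genes of other cell types did (Cldn5, Flt1, Mog, Aqp4, Tmem119 and P2ry12). The neurons were thus chosen by measured values, the detection of these 18 genes, and the levels of neuronal genes in them are given as a description, with no test against other cells.

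The libraries came from 4 male C57BL/6J mice at postnatal day 90, 1 library per animal, with 2 animals in each group. All brains were dissociated enzymatically at the whole-brain level and all libraries carry the same batch label. In the no inhibitor group nothing was added to the buffers. In the inhibitor group the transcription blockers actinomycin D and triptolide were present from perfusion through digestion, and the translation blocker anisomycin from dissection onwards. Such compounds block the making of new RNA or protein while a cell is being isolated. The comparison asks how neurons isolated with and without them differ. No cell sorting was applied, so the neurons are those that survived dissociation of the adult brain.

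Neurons signal through synaptic vesicles that fuse with the membrane on depolarization, and they divide into glutamatergic cells, which excite their targets and load vesicles with Slc17a family transporters, and GABAergic cells, which inhibit them and make their transmitter with the enzymes Gad1 and Gad2. Immediate-early genes such as Fos, Egr1, Arc and Npas4 are transcribed within minutes of activity or stress without new protein synthesis. In neurons they report recent activity, and in many brain cells they are also induced by tissue handling.

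The neurons carried genes of their type that the rule had not used. Meg3, a long noncoding RNA abundant in neurons, had a UMI in 211 of the 223 cells (94.6%), against 7.11% of the 9844 other passing cells. With every cell thinned at random to 500 UMIs these shares were 90.1% and 3.25%. Among the rule genes and under the same thinning, Snhg11, a long noncoding RNA, was detected in 73.1% of neurons, Snap25, a membrane-fusion protein of synaptic vesicle release, in 56.1%, and Syt1, the calcium sensor of that release, in 31.4%. Gria2, an AMPA-type glutamate receptor subunit that the rule did not use, was detected in 56.5% of thinned neurons and 8.03% of thinned other cells, and Camk2b, a calcium-dependent kinase, in 26.0% and 0.874%. A list of 16 pan-neuronal genes summed to 16184 and 20744 CPM (UMIs of the genes per 1000000 UMIs of the summed cells) in the neurons of the no inhibitor animals and to 16611 and 17502 in those of the inhibitor animals, and to between 531 and 693 CPM in the other cells. The label of mature neurons was thus borne by the markers in all 4 libraries, while the median neuron held 5 of the 16 genes.

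**Figure D1:**
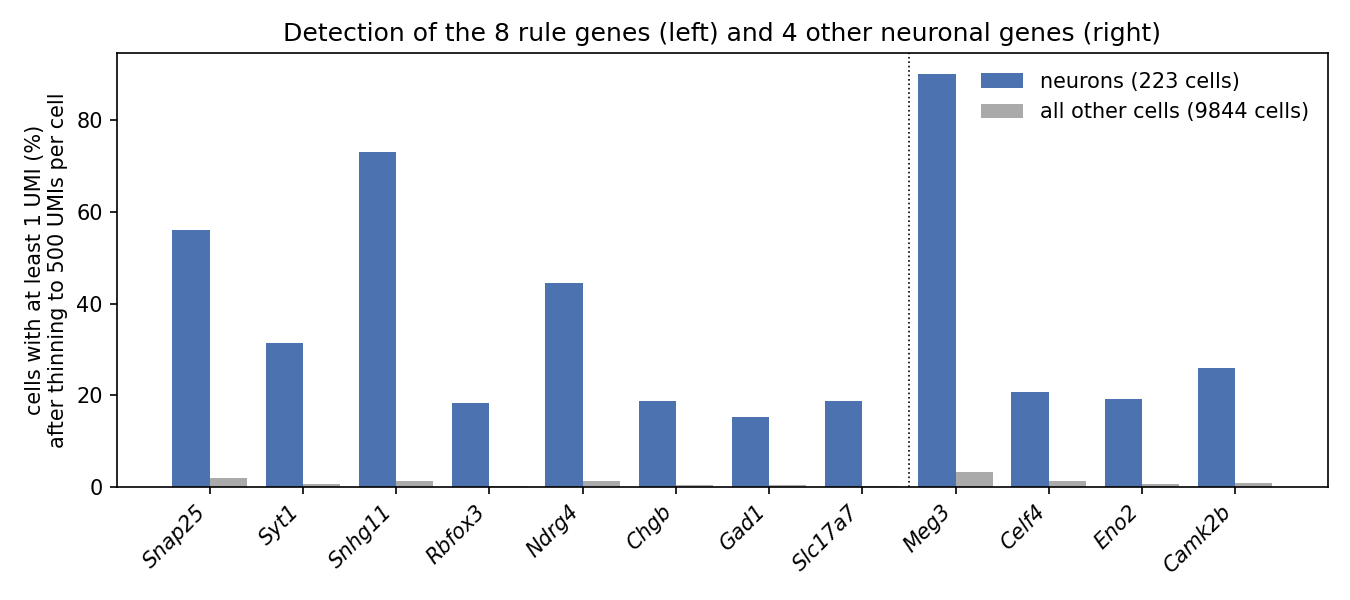
Bars give the share of cells with at least 1 UMI after each cell was thinned to 500 UMIs, for 223 neurons and 9844 other passing cells and the dotted line parts the 8 genes of the rule from 4 genes it did not use. Meg3 reached 90.1% in neurons and 3.25% in other cells.

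The cells just inside and just outside the threshold differed in Meg3. Among cells that met both exclusions, 98 had exactly 2 of the 8 neuronal genes and 77 had exactly 3. Their median depths were 1099 and 814 UMIs. Meg3 was detected in 57.1% of the first and 89.6% of the second, and Map1b, a microtubule-binding protein, in 31.6% and 28.6%. Of 267 passing cells with 3 or more neuronal genes, 33 were lost to genes of other types, 12 to neuroblast genes and 1 of these to both. No cell held all 8 neuronal genes, and the 22 cells with 7 of them had a median of 4751 UMIs.

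Some neurons also carried RNA of other cells. A single gene of the other-type list was present in 56 neurons, and in 25 neurons at least 1 list of another type (astrocyte genes in 18, oligodendrocyte genes in 9) had more detected genes than the pan-neuronal list. The choroid plexus transcript Ttr had UMIs in 98.2% of neurons and 98.0% of all other cells. Microglial genes (9 listed) summed to 391 and 833 CPM in the neurons without inhibitors and to 532 and 1094 CPM with them, against at least 36430 CPM in microglia-marked cells. Oligodendrocyte genes (7 listed) summed to 912 and 985 CPM without inhibitors and to 1737 and 2109 CPM with them, and erythrocyte genes (5 listed) to 534 and 888 CPM against 213 and 281 CPM. Both of these lists therefore differed between the groups without overlap, and their part in the results below was not tested.

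3 neurons were singled out after the data were seen, as those with the most UMIs of Ttr, Cga and Ccdc153, genes of other cell types. 1 cell of no inhibitor animal 1 held 3119 Ttr UMIs among 6344, or 49.2% of its RNA. A second cell of that animal held 344 UMIs of Cga, the pituitary glycoprotein hormone subunit, among 12807 (2.69%). A cell of inhibitor animal 1 held 12 UMIs of the ependymal gene Ccdc153 among 7054 (0.170%). In no inhibitor animal 2, 1 neuron held 83 UMIs of Mgp, a mineralization inhibitor. The main results are given without the 3 cells and also without all doubtful neurons, meaning these 3, the Mgp-rich cell and the neurons in which another type's list outnumbered the pan-neuronal one or no pan-neuronal gene was detected, which left 65, 43, 42 and 45 neurons. No barcode occurred among the neurons of more than 1 library, while 4 neuron barcodes were also found in another library's passing cells.

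Neurons made up 3.20% (95% exact binomial interval 2.52 to 4.02%) and 1.70% (1.26 to 2.25%) of passing cells in no inhibitor animals 1 and 2, and 2.31% (1.71 to 3.04%) and 1.88% (1.41 to 2.44%) in inhibitor animals 1 and 2. The intervals cover counting error only. The group means were 2.45% ± 1.06 and 2.09% ± 0.303 (SD, n = 2 each), and the ranges overlapped (exact two-sided permutation test, p = 1.0). With 2 animals against 2 this test cannot give a p below 0.333.

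Depth differed more between single neurons than between groups. The median neuron of the no inhibitor animals had 1083 and 896 UMIs and that of the inhibitor animals 1118 and 1449, so both inhibitor libraries were deeper (exact two-sided permutation p = 0.333, the smallest possible). Single neurons ran from 514 to 17613 UMIs. In each library the 5 deepest neurons held between 32.6% and 38.2% of all neuron UMIs, so a sum over neurons leans on a few cells. Median mitochondrial shares were 8.30% and 6.35% without inhibitors and 5.71% and 7.59% with them. Malat1, a nuclear noncoding RNA, took 5.98%, 5.57%, 6.57% and 5.94% of neuron UMIs in the same order.

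**Figure D2:**
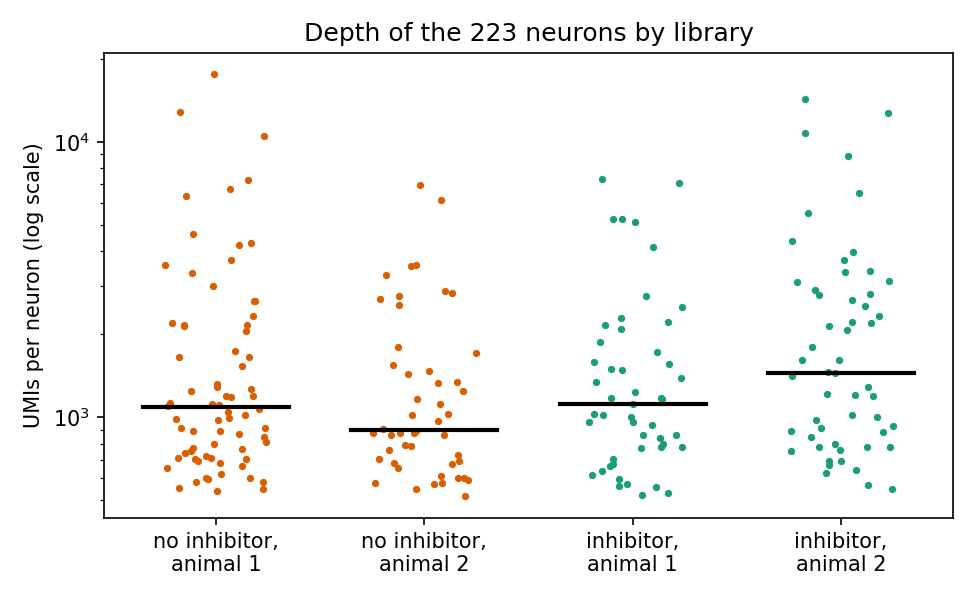
Each point is 1 neuron, with its UMIs on a log axis, and the black line is the library's median. The medians run from 896 to 1449, while single neurons span 514 to 17613.

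The mix of transmitter types differed between the libraries. As counted, a glutamatergic transporter gene (Slc17a7 or Slc17a6) was detected in 18 of 72 and 17 of 48 neurons without inhibitors and in 29 of 49 and 29 of 54 with inhibitors, that is 25.0%, 35.4%, 59.2% and 53.7%. A GABAergic gene (Gad1, Gad2 or the vesicular transporter Slc32a1) was detected in 31, 12, 9 and 9 neurons, or 43.1%, 25.0%, 18.4% and 16.7%. Neither range overlapped between groups. Slc17a7, the transporter of cortical, hippocampal and cerebellar glutamatergic cells, accounted for nearly all of the first class, since Slc17a6 was detected in 3 neurons and Slc17a8 in 0. The rule used Slc17a7 and Gad1 and did not use Slc17a6 or Slc17a8, so it favours cells with the former genes. In all other cells, whose median depths were 1452 to 1700 UMIs, Slc17a7 was detected in 1.10% and Gad1 in 1.31%, against 41.3% and 24.7% of neurons.

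Thinning narrowed this difference. At 500 UMIs per neuron, glutamatergic genes were detected in 15.3% and 18.8% of neurons without inhibitors and 24.5% and 20.4% with them, a difference of -5.42 percentage points. GABAergic genes were detected in 25.0% and 20.8% against 14.3% and 14.8%, a difference of 8.37 points. Slc17a7 and Gad1 are among the genes that chose the neurons, so these shares are a description and carry no test. As counted, the differences were -26.2 and 16.5 points. At 1000 UMIs, with 124 neurons deep enough, the glutamatergic share still did not overlap between groups, while GABAergic genes were detected in 16 of 39 and 4 of 22 neurons against 3 of 28 and 7 of 35, which overlap.

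**Figure D3:**
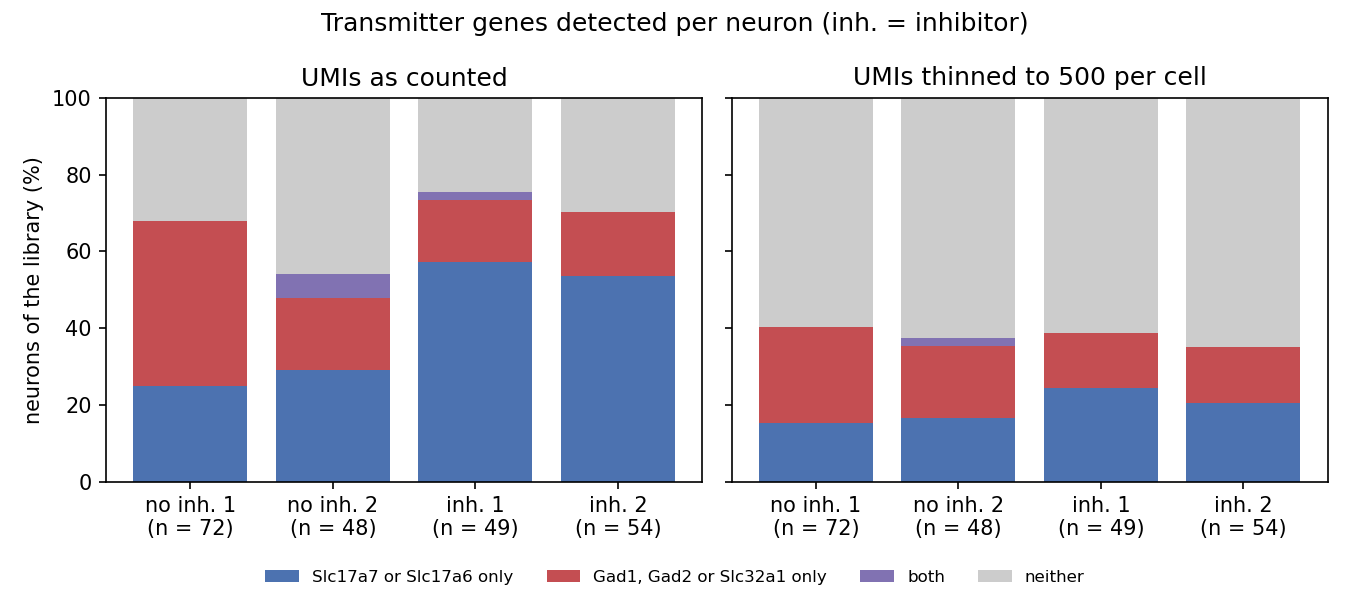
Stacked bars give the share of each library's neurons with glutamatergic genes only, GABAergic genes only, both or neither, as counted (left) and after thinning to 500 UMIs per cell (right). As counted, glutamatergic genes reached 59.2% and 53.7% of neurons in the inhibitor libraries, against 25.0% and 35.4% in the others.

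Genes that mark neurons of several brain areas were detected. At least 2 genes of a cortical and hippocampal projection list (such as Neurod2 and Neurod6) were found in 70 neurons, of a cerebellar granule cell list in 55, of a striatal projection list in 38, of an olfactory bulb list in 30 and of a cortical interneuron list in 15. Genes of monoaminergic, cholinergic and hypothalamic neurons reached 2 in 1 neuron. At 3 or more genes these lists held 30, 35, 28, 12, 1 and 0 neurons in the same order, so cerebellar granule genes then came before cortical and hippocampal ones. The cortical and hippocampal list is not particular to neurons, with 1225 to 1569 CPM in the neuron sums and 1042 to 1187 CPM in microglia-marked cells. The cerebellar granule list is partly shared too, with 569 to 1028 CPM in neurons and 285 to 409 CPM in all other cells. Of its genes, Etv1 had 111 to 248 CPM in neurons and 95.8 to 176 CPM in all other cells. Gabra6 was detected in 15 neurons and Cbln3 in 12. Olfactory bulb genes were found in 21 of the 72 neurons of no inhibitor animal 1 and in 3 neurons of each other library. Striatal genes were found in 14, 6, 7 and 11 neurons and cerebellar granule genes in 20, 6, 10 and 19, and neither set of shares was tested.

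UMIs were then summed over the neurons of each animal and compared between groups with edgeR's quasi-likelihood test. The no inhibitor sums held 153484 and 72069 UMIs, the inhibitor sums 84644 and 138958, and 2641 genes passed the filter on low counts. A gene was called when its p, adjusted by the Benjamini-Hochberg method, was under 0.05 and its log2 fold change exceeded 0.58 in size. Positive values are higher without inhibitors. In such sums, fewer cells of a type and less RNA per cell cannot be told apart. 2 genes were called, both higher without inhibitors (0.0757% of genes tested), and 0 were lower (0.0%). At an unadjusted p under 0.05 there were 97 genes in either direction, and DESeq2 called 0 genes, with 26 at an unadjusted p under 0.05. In data simulated from these libraries, a 4-fold change was recovered for 69.5% of 200 changed genes among 2603 tested. Simulated counts, here and below, had the same spread beyond counting error for all genes and lacked the clumping of UMIs in single neurons. Recovery in the real sums can differ.

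Penk, which encodes the opioid precursor proenkephalin and marks one class of striatal projection neuron, had 53 and 48 UMIs in the neurons of the no inhibitor animals and 8 and 5 in those of the inhibitor animals. These are 345 and 666 CPM against 94.5 and 36.0 CPM. The groups did not overlap, and the log2 fold change was 3.01 (SE 0.51, edgeR adjusted p = 0.0175). The UMIs sat in 9, 4, 5 and 3 neurons, and 1 neuron held 30 of the 53 and another 31 of the 48. Without the top neuron of each library, 23, 17, 5 and 2 UMIs remained. Neurons with 5 or more Penk UMIs numbered 2 in each no inhibitor animal and 0 in each inhibitor animal. In no inhibitor animals 1 and 2, neurons with at least 2 other striatal genes held 44 of 53 and 47 of 48 Penk UMIs, and in inhibitor animals 1 and 2 they held 0 of 8 and 5 of 5. The gene lies at chr4:4133531-4138819 on the minus strand of GRCm38.

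Npy, which encodes neuropeptide Y and marks a set of inhibitory interneurons, had 30 and 18 UMIs without inhibitors and 3 and 1 with them, or 195 and 250 CPM against 35.4 and 7.20 CPM. The groups did not overlap and the log2 fold change was 3.51 (SE 0.62, edgeR adjusted p = 0.0175). The UMIs sat in 8, 3, 1 and 1 neurons, with 15 and 16 in single neurons of the no inhibitor animals. Cells with GABAergic genes alone held 28 of the 30 and 17 of the 18 UMIs. Npy is not particular to neurons here. All other cells had 272 and 19.7 CPM without inhibitors and 248 and 19.6 CPM with them, and their part in the neuron values was not tested. Npy lies at chr6:49822710-49829507 on the plus strand.

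Both calls depended on the animals and on the rule. Leaving out either inhibitor animal gave 0 calls in all, as did a rule of at least 2 neuronal genes and a mitochondrial limit of 10%. Npy also lost its call without no inhibitor animal 1, where 5 genes were called in all, and 6 were called without no inhibitor animal 2. Without the 3 cells richest in Ttr, Cga and Ccdc153, both kept their call, with log2 fold changes of 3.01 and 3.54 (edgeR adjusted p = 0.00494 for each). Without all doubtful neurons they were at 2.97 and 3.46 (edgeR adjusted p = 0.0186 for each).

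The other 8 of the 10 genes with the smallest p were not called. All had groups that did not overlap, which their choice by smallest p makes likely and which carries no further evidence. Of all genes tested, 30.9% did not overlap. Gad2, the second enzyme of GABA synthesis, had 261 and 430 CPM without inhibitors and 47.3 and 93.5 CPM with them (edgeR adjusted p = 0.164). Of its 40 and 31 UMIs without inhibitors, 23 lay in 1 neuron in each animal. Slc32a1 had 156 and 291 CPM against 47.3 and 86.4 CPM, and Resp18, a secretory granule protein, 241 and 180 CPM against 47.3 and 93.5 CPM, with 34 of its 37 UMIs in animal 1 in a single neuron. In the other direction, C1ql3, a secreted synaptic organizer, had 39.1 and 41.6 CPM without inhibitors and 142 and 202 CPM with them. Sqstm1, an autophagy receptor, had 78.2 and 27.8 CPM against 224 and 202 CPM, Tppp 71.7 and 97.1 CPM against 177 and 295 CPM, and Enc1 202 and 153 CPM against 425 and 461 CPM.

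**Figure D4:**
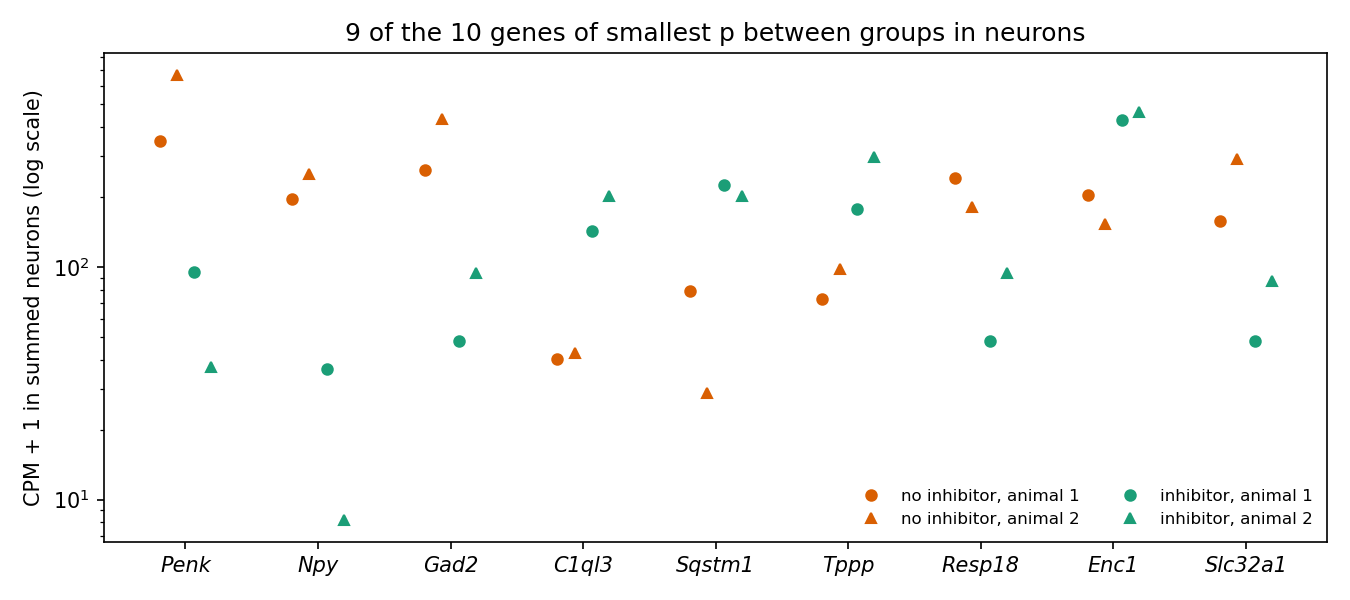
Points give CPM + 1 on a log axis for each animal's summed neurons, for 9 of the 10 genes of smallest p between groups. Penk and Npy were called. In all 9 genes the animals of one group lie on one side of those of the other, which the choice by smallest p makes likely.

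Lists of striatal, olfactory bulb and interneuron genes had the higher medians among the neuronal lists. Of 13 striatal projection genes, 8 were tested and 1 was called (Penk). Their median log2 fold change was 0.96, against 0.026 over all genes tested, and 5 of the 8 had groups that did not overlap, against 30.9% of all genes tested. Cortical interneuron genes (3 of 9 tested) had a median of 0.93 with 1 called (Npy), and olfactory bulb genes (2 of 7 tested) a median of 0.95 with 0 called and 1 at an unadjusted p under 0.05. Erythrocyte genes (3 of 5 tested) had a median of 1.28 with 0 called and 2 at an unadjusted p under 0.05, and choroid plexus genes (2 of 5) of 1.05 with 0 called. Ppp1r1b, the dopamine-signalling phosphatase inhibitor DARPP-32, had 156 and 250 CPM without inhibitors and 23.6 and 122 CPM with them, and these did not overlap. Tac1, the tachykinin precursor of the other striatal projection class, had 111 and 55.5 CPM against 0.0 and 180 CPM. Genes of GABAergic transmission (7 of 9 tested) had a median of 0.059, with 0 called and 2 at an unadjusted p under 0.05. Genes of glutamatergic transmission (12 of 16 tested) had a median of -0.15, with 0 called and 0 at an unadjusted p under 0.05. Synaptic vesicle genes (20 of 20 tested) had a median of -0.038 and pan-neuronal genes (16 of 16) of 0.087, each with 0 called and 0 at an unadjusted p under 0.05. Ion channel genes (17 of 20) had a median of -0.14 and heat shock genes (8 of 12) of -0.032, likewise with 0 called and 0 at an unadjusted p under 0.05. Neuropeptide and granin genes (12 of 19) held both calls, with 7 that did not overlap (30.9% over all genes) and a median of 0.044. The median was -0.35 for cerebellar granule genes (4 of 12 tested) and -0.35 for cortical and hippocampal projection genes (5 of 10), with 0 called and 0 at an unadjusted p under 0.05 in each. DESeq2 called 0 genes of any list.

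Immediate-early genes did not show a difference between groups in neurons that passed the test. Of 33 listed, 9 had enough counts, 0 were called in edgeR or DESeq2 and 2 had an unadjusted p under 0.05. 4 of the 9 had groups that did not overlap, beside 30.9% of all genes tested, and the median log2 fold change was -0.33. Of 25 genes that the study drew from its sorted microglia as changed by dissociation, 8 were tested in neurons, 0 were called, 2 had an unadjusted p under 0.05 and the median was -0.016. Of 19 genes in the activation score that it built on these 4 libraries, which is no independent evidence, 5 were tested, 0 were called, 1 had an unadjusted p under 0.05 and the median was -0.13. Summed over the 33 immediate-early genes, neurons had 1955 and 1610 CPM without inhibitors and 2410 and 1965 CPM with them. Microglia-marked cells, which had at least 2 of Tmem119, P2ry12 and Cx3cr1 and fewer than 3 neuronal genes (3331 cells), had 9117 and 6133 CPM without inhibitors and 1837 and 1737 CPM with them.

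Egr1, a zinc-finger transcription factor induced by synaptic activity, had 25 and 16 UMIs in neurons without inhibitors and 19 and 34 with them, or 163 and 222 CPM against 224 and 245 CPM. It was present in 16, 6, 10 and 16 neurons, with at most 7 UMIs in any of them. The inhibitor animals were slightly higher, with a log2 fold change of -0.33 (SE 0.41, edgeR adjusted p = 0.996). In microglia-marked cells Egr1 had 150 and 60.7 CPM without inhibitors and 1.80 and 6.02 CPM with them. The neurons of inhibitor-treated brains thus held Egr1 at levels above those of microglia-marked cells of either group. Neurons with glutamatergic genes alone held 7 of 25 and 1 of 16 Egr1 UMIs without inhibitors and 14 of 19 and 26 of 34 with them. These cells held 33.3% and 34.3% of neuron UMIs without inhibitors and 63.4% and 70.2% with them. Egr1 per cell and this difference in mix cannot be told apart in the sums.

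Npas4, a transcription factor largely restricted to neurons and their activity, had 1 UMI in each no inhibitor library and 7 and 6 UMIs in the inhibitor libraries, each UMI in a different neuron. All 7 of inhibitor animal 1 lay in glutamatergic neurons, which held 63.4% of that animal's neuron UMIs. Of the 6 in inhibitor animal 2, 1 lay in a glutamatergic neuron, 2 in GABAergic neurons and 3 in neurons with neither set of genes. The counts were too low to be tested. Arc, a postsynaptic activity-regulated protein, had 84.7 and 111 CPM without inhibitors and 142 and 57.6 CPM with them, and the groups overlapped. Homer1, a scaffold of glutamate receptors with an activity-induced form, had 208 and 194 CPM against 520 and 273 CPM and was not called.

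Fos, the AP-1 subunit most used as an activity marker, had 30 and 4 UMIs without inhibitors and 8 and 1 with them. 28 of the 30 lay in the Cga-rich cell, which left 2, 4, 8 and 1. With that cell the log2 fold change was 1.76 (SE 0.73, edgeR adjusted p = 0.996), and without the 3 cells Fos no longer passed the filter. Junb, another AP-1 subunit, had 27, 0, 9 and 23 UMIs, 16 of the 27 in the same cell. Jun had 6, 1, 5 and 9 UMIs and Dusp1, a phosphatase that ends MAP kinase signalling, 6, 2, 4 and 5. Hspa1a, the inducible heat shock chaperone, had 1, 2, 2 and 1. In microglia-marked cells Fos had 791 and 421 CPM without inhibitors and 4.51 and 2.26 CPM with them, and Jun 1759 and 1033 CPM against 135 and 99.4 CPM.

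**Figure D5:**
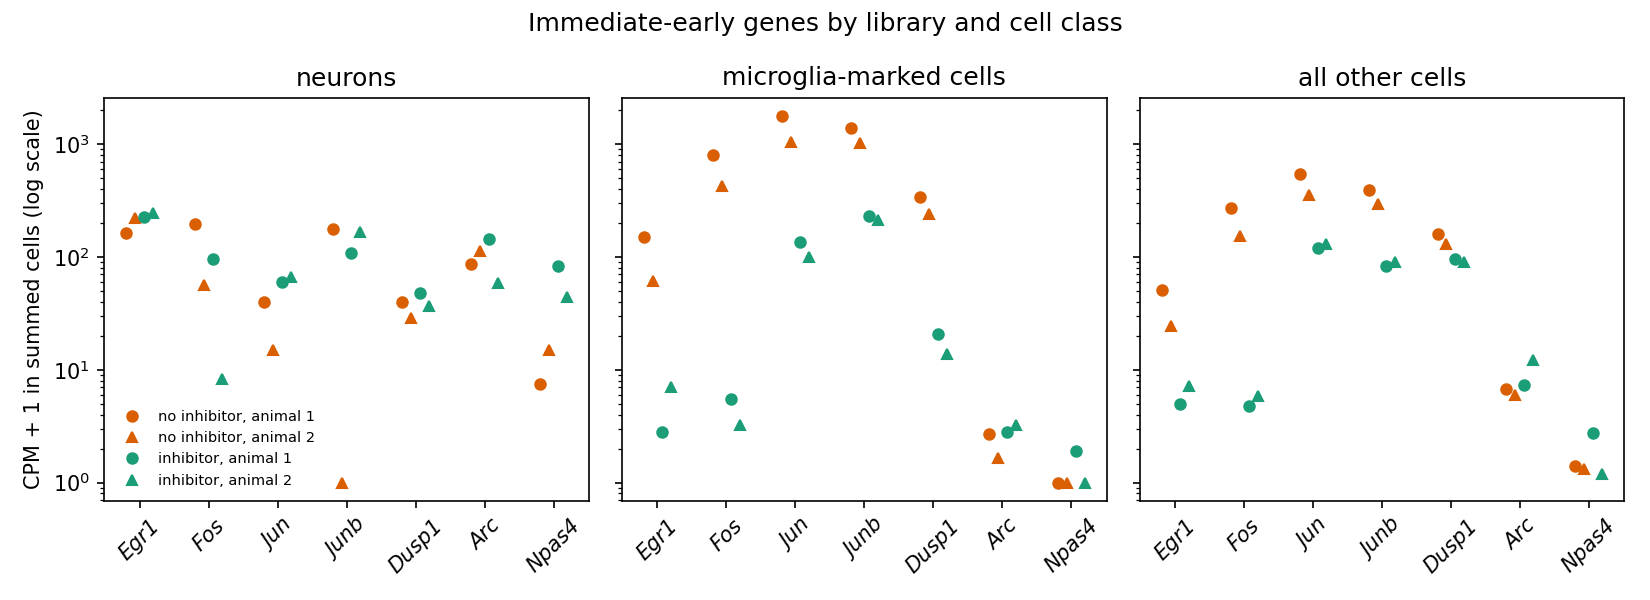
Points give CPM + 1 on a log axis by animal, in summed neurons, microglia-marked cells and all other passing cells, which include the microglia-marked ones. Egr1 lies between 163 and 245 CPM in all 4 neuron sums, while in microglia-marked cells it falls from 150 and 60.7 CPM without inhibitors to 1.80 and 6.02 CPM with them.

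The promoters of Fos and Npas4 are shown because both genes are induced by activity and their levels in neurons are described above. The windows run from 250 bases before to 50 bases after the annotated start (RefSeq, GRCm38.p6), and capitals mark TGACG or its reverse complement, the core of the cyclic AMP response element through which neuronal activity acts on transcription.
Fos, chr12:85473640-85473939, plus strand: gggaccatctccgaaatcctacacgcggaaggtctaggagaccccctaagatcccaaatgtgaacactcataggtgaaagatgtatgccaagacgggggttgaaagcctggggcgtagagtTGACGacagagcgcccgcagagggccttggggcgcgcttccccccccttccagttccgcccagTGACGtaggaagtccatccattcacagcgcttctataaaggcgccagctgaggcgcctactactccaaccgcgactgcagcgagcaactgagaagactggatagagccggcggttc
Npas4, chr19:4989922-4990221, minus strand: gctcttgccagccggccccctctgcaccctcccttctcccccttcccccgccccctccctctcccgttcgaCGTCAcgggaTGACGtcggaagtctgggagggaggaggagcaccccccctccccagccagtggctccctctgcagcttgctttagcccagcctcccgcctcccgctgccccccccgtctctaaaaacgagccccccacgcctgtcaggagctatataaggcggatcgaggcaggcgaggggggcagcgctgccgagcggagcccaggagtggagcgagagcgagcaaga
The matches begin at -129 and -66 in Fos and at -179 and -169 in Npas4, relative to the start. TGACG on either strand occurred in 20.8% of 32851 promoter windows used here, and the full TGACGTCA, which contains it on both strands, in 1.79% of them and in neither of these.

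Whether the difference between groups in neurons itself differed from that in other cells was tested as an interaction, with the animal as a block. Against microglia-marked cells, 15 of 9953 genes were called (0.151%), 9 with a lower fold change in neurons (0.0904%) and 6 with a higher one (0.0603%). Egr1 had a difference in log2 fold change of -5.03 (SE 0.59, edgeR adjusted p = 8.03e-14). Fos was at -5.90 (SE 0.96), but it passed the filter in neurons through the Cga-rich cell, so it is given as a value. Jun, at -4.80, passed the filter only through microglia-marked cells, where it is high, so it too is given as a value. Against all other cells, 6 of 12908 genes were called (0.0465%), 3 in each direction (0.0232%). Among them were Egr1 at -3.26 (SE 0.51, edgeR adjusted p = 8.85e-07) and Penk at 3.79 (SE 0.53, edgeR adjusted p = 8.91e-09). Fos, also called at -4.00 (SE 0.81), is again given as a value. Egr1 was lower with inhibitors in microglia-marked cells and in all other cells. It was not lower in the neuron sums, whose mix of transmitter types differed between the groups as described above. The 9844 other cells include the 3331 microglia-marked ones, so the comparisons share cells and are not separate evidence. Against microglia-marked cells Fos lost its call without inhibitor animal 1. Against all other cells Egr1 lost its call without no inhibitor animal 1, Fos without inhibitor animal 1 and Penk without inhibitor animal 2. Against microglia-marked cells Egr1 was at -5.10 without the 3 cells richest in Ttr, Cga and Ccdc153 and at -5.16 without all doubtful neurons. Without the latter, 5 genes were called against all other cells and 8 against microglia-marked cells.

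The filter on low counts as designed kept genes that are abundant in the other cells and near 0 in neurons, and simulation recovered 12% and 8% of 4-fold changes against other and microglia-marked cells. With the filter also required in neurons alone, a choice made after these data were seen, 2602 and 2190 genes were tested. In each comparison 2 were called: Egr1 in both, Penk against other cells and Fos against microglia-marked cells. Fos passed this filter too through the Cga-rich cell. Of the other genes named by smallest adjusted p, 3 rested on single cells. Mgp had 83 of its 86 UMIs of no inhibitor animal 2 in 1 neuron. Cdkn1c had 18 of 21 UMIs of no inhibitor animal 1 in the Cga-rich cell, and Ccdc153 12 of 14 in the ependymal-marked cell of inhibitor animal 1.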

How the data were processed

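Whole brains of 4 mice were profiled with 10x Genomics 3′ version 2 chemistry, 1 library each. Per the submitters' notes the authors used Cell Ranger 3.0.0 on mm10 (GRCm38) and deposited raw UMI counts per gene and barcode. The deposited counts were not normalized, and no barcode had fewer than 500 UMIs. Neurons and gene lists were chosen with earlier results of these data known. Cells passed with at least 400 genes and at most 20% mitochondrial UMIs. Doublets were left in beyond the rule, and as an alternative 206 cells (2.05% of those passing) with the highest simulated-doublet scores were removed, 2 of them neurons. UMIs were summed per animal and the sums fitted in R 4.3.3 by edgeR 4.0.16 (robust quasi-likelihood F test after filterByExpr and TMM scaling, with Benjamini-Hochberg adjustment), with DESeq2 1.42.0 as an alternative. The share of neurons and median depths were compared with exact permutation tests over animals. Transmitter shares are given without a test, though one was planned, because the rule used Slc17a7 and Gad1. The fits were tested on simulated counts. In that step the sign was scored over genes that passed the filter in the simulated data, since changed genes that failed it have no estimate. Interactions also needed at least 1 UMI in each cell class, a condition set after the design. The interaction filter required in both cell classes was added after this step and is reported only as an alternative, with the filter as designed kept for the values reported first. Library sizes were taken over all genes. Named were the called genes and those of smallest p in neurons up to 10, fixed activity, transmitter and region genes, the 3 most abundant and the most changed tested genes of each list as far as they bear on the text, and the 5 genes of smallest adjusted p in each interaction. A few genes that these rules name are not reported here. Ensembl IDs gave gene positions in GENCODE vM21 (GRCm38). Same-numbered libraries were not taken as pairs. Other steps ran in Python 3.11.15 (scikit-learn 1.9.0, matplotlib 3.10.9, pandas 2.3.3, scipy 1.17.1, numpy 2.4.6). The labels do not say more of the animals than strain, sex and age. All p-values rest on 2 animals a group, and those of edgeR and DESeq2 also borrow estimates of spread across genes.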

Additional observations from a re-analysis of the deposited data

Results flagged for a closer look

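Values in this section are differences in log2 fold change. For the genes listed, edgeR's interaction test called the difference between groups in neurons as unlike that in other cells. Against microglia-marked cells it was lower in neurons for Egr1 (-5.03), Fos (-5.90), Jun (-4.80), Junb (-3.07), Dusp1 (-4.50), Klf2 (-8.81), Gm19935 (-4.41), Ccdc153 (-9.80) and Foxj1 (-10.9). It was higher for Mgp (6.67), Penk (3.81), Rbp4 (7.77), Vtn (3.30), Prg4 (10.7) and Cdkn1c (8.0). Against all other cells it was lower for Egr1 (-3.26), Fos (-4.00) and Junb (-2.56) and higher for Penk (3.79), Mgp (4.79) and Cdkn1c (10.3). Values beyond 7 in size belong to genes with 0 UMIs in at least 1 library of neurons, where the fitted value depends on the prior count and is no bound.

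Several of these rest on few UMIs of neurons, and a gene could pass the filter through the other cells alone. With the filter required in both classes, only Egr1 and Fos against microglia-marked cells and Egr1 and Penk against all other cells kept calls. Fos passed that filter in neurons through the Cga-rich cell. Klf2 had 0, 0, 3 and 4 UMIs, Prg4 1, 4, 0 and 0, Foxj1 0, 0, 6 and 3 with 6 in 1 cell, and Rbp4 11, 0, 0 and 3 with 9 in the Cga-rich cell. Vtn had 20, 0, 5 and 2 UMIs, and its value was -5.27 without no inhibitor animal 1. Jun had 6, 1, 5 and 9 UMIs and Dusp1 6, 2, 4 and 5, and neither was tested in neurons alone. Egr1 against microglia-marked cells was called under 17 of 18 alternatives, all but thinning to 500 UMIs.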

How the results depend on the processing

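In neurons, 2 genes were called as reported. The count was 0 with DESeq2, with at least 2 of the 8 genes, with no gene of other types or neuroblasts, with mitochondrial UMIs at most 10% and with cells thinned to 500 UMIs (added after seeing the data), and 4 with no filter on low counts. Leaving out 1 animal gave 0 to 6 calls. Deviations of same-numbered libraries from their group means had a weak negative correlation (r = -0.165 over 2641 genes), so the numbers were not taken as pairs. The replicate block gave 3 calls, and the crossed block, added after seeing the data, gave 10.

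Against all other cells, 6 calls became 0 with DESeq2 and with thinning, 3 with at least 2 of the 8 genes and at a mitochondrial limit of 10%, and 2 with no gene of other types or neuroblasts and with the filter passed in both classes. Leaving out 1 animal gave 2 to 7. Against microglia-marked cells, 15 calls became 3 with DESeq2, 0 with thinning, 8 with no gene of other types or neuroblasts, 7 at a mitochondrial limit of 10%, 8 without all doubtful neurons (added after seeing the data) and 2 with the filter passed in both classes, and leaving out 1 animal gave 6 to 12. The thinning and both-class filter alternatives test fewer genes. The cause was otherwise not tested. Fos against all other cells turned to 0.98 with thinning, from -4.00.

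The glutamatergic share difference was -5.42 points at 500 UMIs, -22.0 at 1000 and -26.2 as counted, and the GABAergic one 8.37, 14.2 and 16.5. The median UMI difference moved from -294 to -701 with at least 4 of the 8 genes. Leaving out 1 animal moved the median log2 fold change of GABAergic genes between 0.043 and 0.65 and of striatal genes between 0.53 and 2.12. Library sizes over tested genes only (added) changed no count of calls.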
